A study of Mus musculus with 4 samples.

Results

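Receptors for interleukin-12 (IL-12), interleukin-18 (IL-18) and interleukin-1 (IL-1) were followed in the RNA of T cells driven towards the regulatory fate in culture, called induced Treg cells. The group held 8 genes, Il12rb1, Il12rb2, Il18r1, Il18rap, Il1r1, Il1r2, Il1rap and Sigirr, out of 22144 gene symbols present in both deposited tables. They were chosen by name, with earlier results of these data known. Each of the 8 had 1 row in each table. The libraries came from C57BL/6 cells, 2 labelled MSC KO and 2 labelled WT, and MSC stands for musculin, a transcription factor of the basic helix-loop-helix family. Naive T cells of both genotypes had been sorted and kept for 3 days with TGF-beta (2 ng/ml) on plates coated with anti-CD3 and anti-CD28 (1 µg/ml), and no group without TGF-beta was analysed here. The labels name neither the targeted part of Msc nor whether the replicates came from separate animals or cultures, so p-values measure only the spread between these libraries, which may be technical.

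IL-12 signals through a pair of chains, IL-12Rβ1 (Il12rb1), which binds the kinase TYK2, and IL-12Rβ2 (Il12rb2), which binds JAK2 and recruits STAT4. IL-12Rβ1 is shared with the IL-23 receptor, while IL-12Rβ2 is the regulated chain that makes T cells responsive to IL-12 during type 1 helper (Th1) differentiation. The IL-18 and IL-1 receptors carry a TIR domain inside the cell and signal through MyD88 and IRAK kinases to NF-kappaB. The ligand-binding chain of IL-18 is Il18r1 and its signalling partner Il18rap. IL-1 uses Il1r1 with the accessory chain Il1rap, against which work the decoy receptor Il1r2 and the inhibitory receptor Sigirr.

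Levels are FPKM, fragments scaled by transcript length and by mapped depth, given in the order of replicate 1 and replicate 2. MSC KO 1 was deposited in 1 table with WT 1, and MSC KO 2 with WT 2 in another, and differences were taken within a table since a common scale of the tables is not stated. Depth, estimated from the step that 1 fragment makes among low values, was 28000000 and 32800000 fragments in MSC KO-labelled libraries and 25500000 and 35000000 in WT. Msc went against the labels, at 0.331 and 0.939 FPKM in MSC KO-labelled libraries and 0.0243 and 0.0178 FPKM in WT (about 16.2 and 53.6 fragments against 1.08 and 1.09), so directions below are given for the libraries as labelled. The T cell genes Cd3e (141 and 133 FPKM against 149 and 155 in WT) and Cd4 (166 and 209 FPKM against 173 and 189) were high in all 4 libraries. Foxp3, which defines Treg cells, was at 2.97 and 7.05 FPKM in MSC KO-labelled libraries and at 62.8 and 66.0 FPKM in WT. Of the other Treg markers listed, Ikzf2 and Lrrc32 were also lower and Il2ra overlapped. Higher were Ctla4 (217 and 188 FPKM against 112 and 120 in WT) and Tnfrsf18 (713 and 723 FPKM against 567 and 572). The median absolute gap between replicates over the tested genes was 0.171 on the log2(FPKM + 1) scale between the MSC KO-labelled libraries and 0.0669 between the WT libraries.

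The upstream sequences of the 3 receptor genes that differed at least 2-fold in the same direction in both tables are shown because 2 of them, Il18r1 and Il18rap, lie side by side and were both lower, and Il12rb2 was higher. They are RefSeq sequence of GRCm38.p6, 5′ to 3′ on the strand of the gene, taken from the 250 bases before an annotated start and cut to the longest stretch outside every exon of GENCODE M21. RefSeq gave 9 such windows for 6 of the 8 genes, including 3 starts of Il18r1. The most downstream of these is shown, the only 1 of the 3 with a motif match, and its window lies downstream of the other starts. By its distance from Il18rap, the measured Il18r1 locus begins at the most upstream of the 3 starts. Which start the transcripts used was not tested. Capitals mark matches to the STAT motif TTCNNNGAA.
Il12rb2 (chr6:67376189-67376438, minus strand): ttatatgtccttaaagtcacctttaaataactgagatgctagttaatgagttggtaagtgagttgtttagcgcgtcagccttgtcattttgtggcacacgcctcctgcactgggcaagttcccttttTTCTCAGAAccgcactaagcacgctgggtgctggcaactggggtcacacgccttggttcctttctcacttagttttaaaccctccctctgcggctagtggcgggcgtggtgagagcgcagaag
Il18r1 (chr1:40465811-40465969, plus strand): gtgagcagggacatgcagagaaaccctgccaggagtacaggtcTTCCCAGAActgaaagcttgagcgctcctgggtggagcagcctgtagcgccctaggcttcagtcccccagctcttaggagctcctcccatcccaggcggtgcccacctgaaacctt
Il18rap (chr1:40515112-40515361, plus strand): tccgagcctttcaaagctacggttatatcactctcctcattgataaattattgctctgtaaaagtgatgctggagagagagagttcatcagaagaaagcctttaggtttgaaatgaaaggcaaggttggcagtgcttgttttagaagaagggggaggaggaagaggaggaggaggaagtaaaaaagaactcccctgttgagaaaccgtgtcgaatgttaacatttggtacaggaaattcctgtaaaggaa

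The 6 motifs searched on both strands of the full 250 bases were TTCNNNGAA for STAT factors, AGATAA for GATA factors, TCACACC for T-box factors, TGANTCA for AP-1, TGTGGT for Runx factors and CAGCTG as a form of the E-box. The STAT motif lay in 3 of the 9 windows, and none of the other 5 motifs lay in any. Its matches began 123 bases before the start of Il12rb2, 219 and 152 bases before the shown start of Il18r1, and 111 bases before that of Il1r2, and no match overlapped another. The windows of the other Il18r1 starts, further upstream, held no match to any of the 6 motifs. The match at 219 bases falls in an annotated exon and is not printed. Among all 32851 promoter windows of the same length, 7.02% held the STAT motif, 9.99% the GATA, 3.33% the T-box, 6.75% the AP-1, 14.0% the Runx and 13.0% the E-box form. These are matches of letters only.

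The comparison asked how the transcripts of these receptors differ between MSC KO-labelled and WT induced Treg cells. Both IL-12 receptor chains were higher and both IL-18 receptor chains lower in the 2 MSC KO-labelled libraries, and among the IL-1 receptor genes the decoy Il1r2 and the inhibitor Sigirr were higher. No member passed an adjusted p of 0.05 in limma, where the table entered as a block; that fit called 0.00943% of 10603 genes, which was 1 gene, the small RNA Rnu73b, and had 1 residual degree of freedom. Of the 7 members tested, 6 had an unadjusted p under 0.05, as did 20.4% of all genes. Of these members 4 were higher and 2 lower, against 9.2% and 11.2% of all genes. Il18rap, 1 of the 2 lower, passed the filter on low values through the WT libraries alone and adds no support to these counts. The members were chosen with earlier results of these data known, so the counts and shares do not measure an excess. With no block, where 153 of the 10603 genes were called, Il12rb2 (adjusted p = 0.0373, limma), Il18r1 (0.027) and Il18rap (0.0333) passed. In fits that left out 1 library, with no block, Il12rb1, Il12rb2, Il18r1, Il18rap, Il1r2 and Sigirr passed without MSC KO 1 or MSC KO 2 (2301 and 2672 genes called), and no member passed without WT 1 or WT 2 (0 and 3 genes called). Il1r1 stayed under the filter of a mean of 1 FPKM and is described only.

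**Figure D1:**
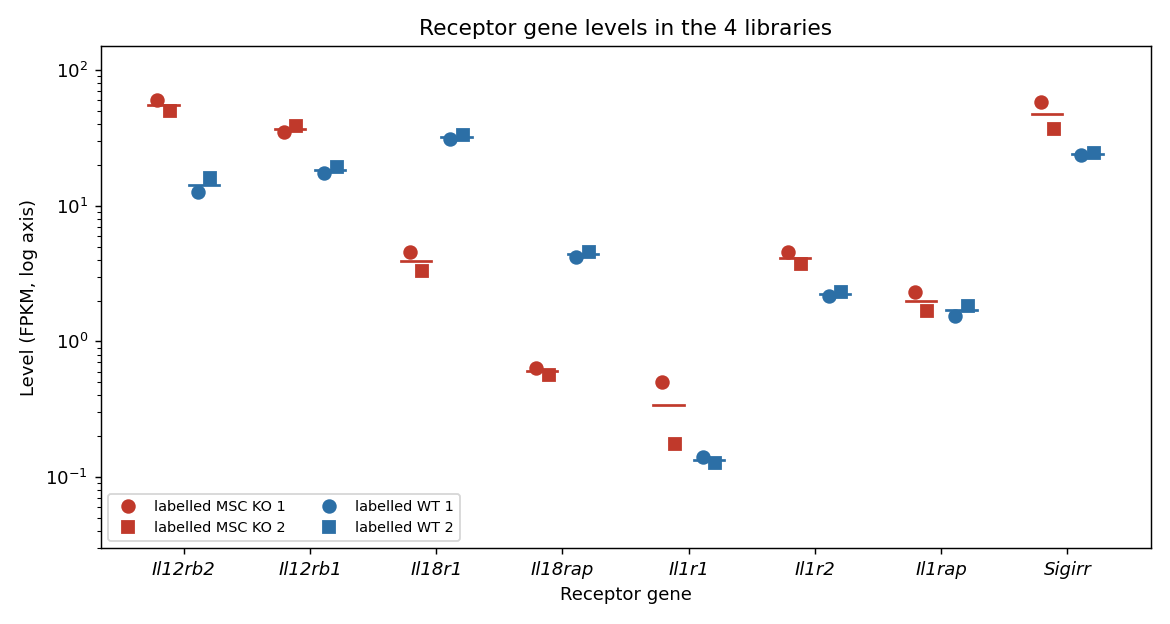
Levels of the 8 receptor genes in FPKM on a log axis, with 1 point per library and a line at the mean of each group (n = 2). The MSC KO-labelled libraries lie above WT for Il12rb2, Il12rb1, Il1r1, Il1r2 and Sigirr, below WT for Il18r1 and Il18rap, and overlap WT for Il1rap.

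Il12rb2, the regulated IL-12 receptor chain (chromosome 6, mm9, 67240015 to 67326312 in the first table), was at 59.9 and 50.1 FPKM in MSC KO-labelled libraries and at 12.7 and 15.9 FPKM in WT. The groups did not overlap, and MSC KO 1 was at 4.71 times and MSC KO 2 at 3.15 times the level of the WT library of its table. The difference was 1.87 ± 0.18 on the log2(FPKM + 1) scale (SE, n = 2 each; adjusted p = 0.117, limma). In the authors' deposited tables, which test 1 library against 1, Il12rb2 was called in both (q = 0.0117712 and 0.0142912). Calls by that test in the authors' deposited tables covered 0.652% of the genes tested in the first (0.501% higher, 0.15% lower) and 0.547% in the other (0.351% higher, 0.196% lower), and 0.239% of the genes tested in both were called in the same direction in both. By the smaller of its 2 differences Il12rb2 was 57th of 3303 genes higher in both tables. In GENCODE M21 the gene overlaps Serbp1, an mRNA-binding protein gene on the opposite strand, which was at 172 and 171 FPKM against 161 and 158. In the deposited tables no other row overlapped that of Il12rb2, so the shared stretch is known from GENCODE M21 only. Whether counting used strand is not given in the sources used here, so that fragments of the shared stretch could belong to either gene.

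Il12rb1, the chain shared with the IL-23 receptor (chromosome 8, mm9, 73332347 to 73346480), was at 34.6 and 38.7 FPKM against 17.3 and 19.4 in WT. Both tables gave nearly the same ratio to WT, 2.00 and 1.99, and the gap between replicates was 0.16 on the log2 scale in each group. The difference was 0.96 ± 0.09 (SE, n = 2 each; adjusted p = 0.117, limma), and the authors' deposited tables did not call it (q = 0.508901 and 0.326417). The balance of the 2 chains also differed. Within a library, Il12rb2 was 1.73 and 1.30 times the FPKM of Il12rb1 in MSC KO-labelled libraries and 0.735 and 0.818 times in WT, so that the β2 transcript was the more abundant per length in MSC KO-labelled libraries and the β1 transcript in WT.

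Il18r1, the IL-18 binding chain (chromosome 1, mm9, 40522396 to 40557700), was at 4.57 and 3.31 FPKM in MSC KO-labelled libraries and at 30.7 and 33.3 FPKM in WT. That is 6.71-fold lower beside WT 1 and 10.1-fold lower beside WT 2, with no overlap of the groups. The difference was -2.75 ± 0.16 (SE, n = 2 each; adjusted p = 0.0992, limma), and the authors' deposited tables called it in both (q = 0.0117712 and 0.0142912). By the smaller of its 2 differences it was 10th of 3973 genes lower in both tables. In WT it was expressed above 73.0% and 74.1% of the tested genes, and in MSC KO-labelled libraries above 24.1% and 16.7%.

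Il18rap, the signalling chain of the IL-18 receptor (chromosome 1, mm9, 40572206 to 40608539 in the first table), was at 0.642 and 0.563 FPKM against 4.18 and 4.59 in WT. It was lower by 6.52-fold and 8.16-fold, and its MSC KO-labelled values correspond to at most about 87.8 and 90.2 fragments with the longest annotated transcript, against 521 and 787 in WT. The difference was -1.75 ± 0.15 (SE, n = 2 each; adjusted p = 0.114, limma), and it was 27th of the 3973 genes lower in both tables. In the authors' deposited tables it was not called (q = 0.192154 and 0.112587). Il18rap passed the filter on low values through the WT libraries alone, and its difference was -2.68 with a pseudocount of 0.1 and -2.85 with 0.01. The 2 chains kept close to 1 proportion: Il18rap was at 0.14 and 0.17 of the FPKM of Il18r1 in MSC KO-labelled libraries and at 0.136 and 0.138 in WT.

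The order of Il12rb2 and Il18r1 was opposite in the groups. Il12rb2 was 13.1 and 15.1 times the FPKM of Il18r1 in MSC KO-labelled libraries and 0.414 and 0.478 times in WT, a ratio added after the values were seen. Genes at least 2-fold higher in both tables were 1.32% of those tested and genes at least 2-fold lower 0.811%. Among the 7 tested members, chosen with earlier results of these data known, 1 was 2-fold higher (Il12rb2) and 2 were 2-fold lower (Il18r1 and Il18rap). Of these, Il18rap passed the filter on low values through the WT libraries alone and adds no support to the count.

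**Figure D2:**
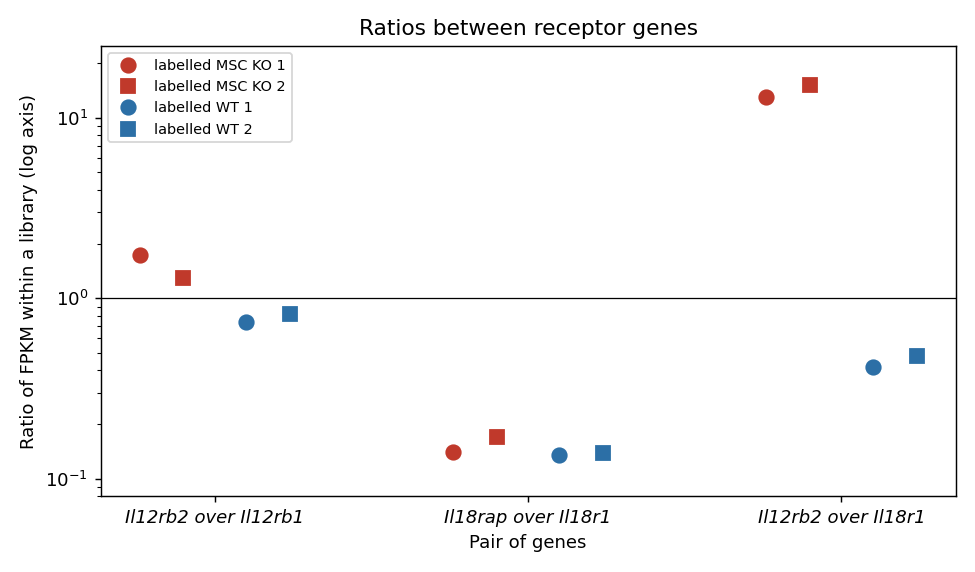
Ratio of the FPKM of 2 receptor genes within each library, on a log axis, with 1 point per library. Il12rb2 over Il12rb1 lies above 1 in both MSC KO-labelled libraries and below 1 in both WT libraries, Il18rap over Il18r1 lies between 0.136 and 0.17 in all 4, and Il12rb2 over Il18r1 is at 13.1 and 15.1 against 0.414 and 0.478 in WT.

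Il1r1, the signalling receptor of IL-1 (chromosome 1, mm9, 40281924 to 40373022), was the lowest member in every library, at 0.506 and 0.175 FPKM against 0.142 and 0.128 in WT. With its longest annotated transcript this is about 82.4 and 33.4 fragments against 21.1 and 26.1. The 2 groups did not overlap, but the distance between the MSC KO-labelled libraries exceeded that between the second of them and WT. The 2 differences were 0.40 and 0.06 on the log2(FPKM + 1) scale. It was not called in the first of the authors' deposited tables (q = 0.999348) and not tested in the other.

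Il1r2, the decoy receptor, which binds IL-1 without signalling (chromosome 1, mm9, 40133056 to 40182070), was at 4.58 and 3.70 FPKM against 2.15 and 2.33 in WT, or 2.14 and 1.58 times WT. All MSC KO-labelled values lay above the WT values, with a difference of 0.66 ± 0.15 (SE, n = 2 each; adjusted p = 0.179, limma). It was not called in the authors' deposited tables (q = 0.999348 and 0.999243). A row named LOC100047133 shares its locus, at 0.303 and 0.0371 FPKM against 0.0476 and 0.141, so the 2 rows may divide fragments. The decoy transcript exceeded that of the signalling receptor in every library, 9.06 and 21.1 times in MSC KO-labelled libraries and 15.1 and 18.3 times in WT, and the groups overlapped in this ratio.

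Il1rap, the accessory chain that completes the IL-1 receptor (chromosome 16, mm9, 26581790 to 26725233), was at 2.33 and 1.68 FPKM against 1.55 and 1.82 in WT. The groups overlapped, and the sign differed between the tables (0.39 and -0.08). The fitted difference was 0.15 ± 0.19 (SE, n = 2 each; adjusted p = 0.681, limma), and the authors' deposited tables made no call (q = 0.999348 and 0.999243). Gene-level values do not separate its membrane-bound and soluble forms, and the same holds for the other receptors with soluble forms.

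Sigirr, which restrains IL-1 and IL-18 receptor signalling (chromosome 7, mm9, 148277071 to 148286445 in the first table), was at 57.6 and 36.4 FPKM against 23.7 and 24.6 in WT. It lay above WT in both tables, 2.43 and 1.48 times, with a difference of 0.90 ± 0.21 (SE, n = 2 each; adjusted p = 0.186, limma). Its MSC KO-labelled libraries were 0.65 apart on the log2 scale, the widest replicate gap among the 8 genes, and its WT libraries 0.06. In the authors' deposited tables it was not called (q = 0.192154 and 0.999243).

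**Figure D3:**
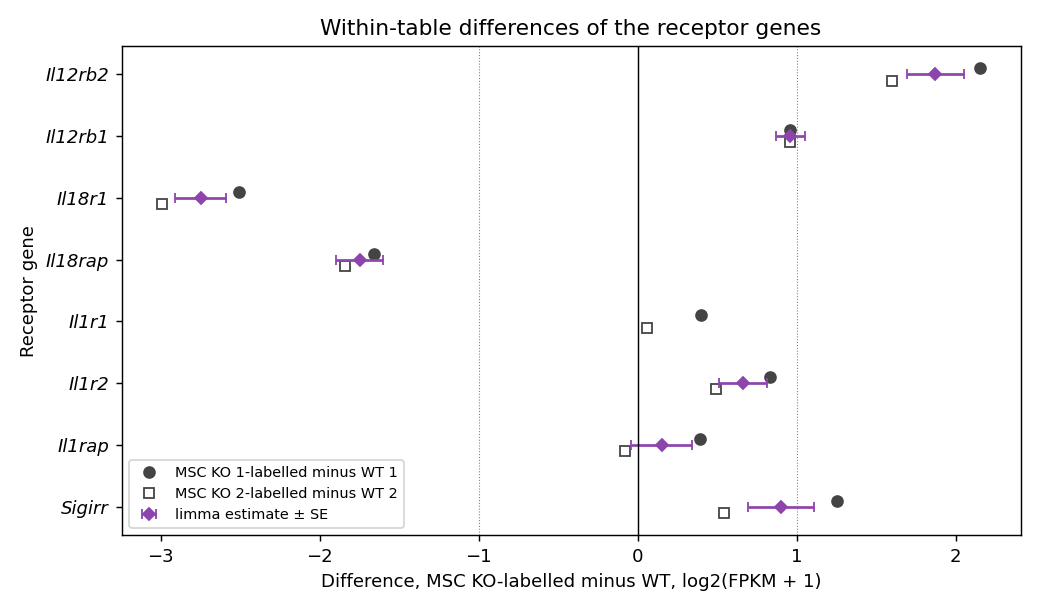
Differences between the MSC KO-labelled and the WT library of each table on the log2(FPKM + 1) scale for the 8 receptor genes (circles and squares), with the limma estimate and its SE as diamonds for the 7 tested. Dotted lines mark 2-fold; Il12rb1 lies just inside it at 0.96 in both tables, and Il1rap has opposite signs.

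The order of the receptors by FPKM differed between the groups. In the MSC KO-labelled libraries Il12rb2 (55.0 ± 6.89 FPKM, SD, n = 2), Sigirr (47.0 ± 15.0 FPKM) and Il12rb1 (36.6 ± 2.93 FPKM) came first, followed by Il1r2 (4.14 ± 0.627 FPKM), Il18r1 (3.94 ± 0.893 FPKM), Il1rap (2.00 ± 0.459 FPKM), Il18rap (0.602 ± 0.0559 FPKM) and Il1r1 (0.340 ± 0.234 FPKM). There the values of Sigirr overlapped those of both Il12rb2 and Il12rb1, and those of Il1r2 and Il18r1 overlapped. In WT the order was Il18r1 (32.0 ± 1.85 FPKM, SD, n = 2), Sigirr (24.1 ± 0.679 FPKM), Il12rb1 (18.4 ± 1.52 FPKM), Il12rb2 (14.3 ± 2.26 FPKM), Il18rap (4.39 ± 0.29 FPKM), Il1r2 (2.24 ± 0.133 FPKM), Il1rap (1.69 ± 0.195 FPKM) and Il1r1 (0.135 ± 0.0102 FPKM). No neighbours in the WT order overlapped.

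Of the 7 tested members 4 had both MSC KO-labelled libraries above both WT libraries and 2 had both below. The same held for 26.6% and 32.5% of all tested genes. The plot of one table against the other sets the members among all tested genes.

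**Figure D4:**
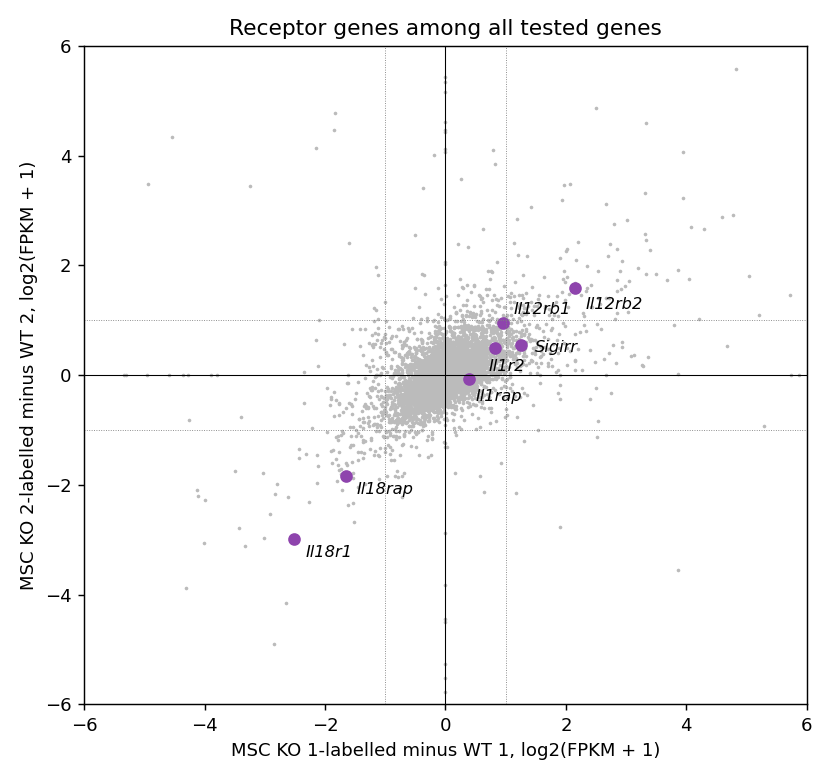
Difference in the first table (x axis) against that in the second (y axis), both on the log2(FPKM + 1) scale, for all 10603 tested genes in grey and the 7 tested receptor genes in purple; 38 genes lie outside the axes. Il18r1 and Il18rap sit in the lower left beyond 2-fold in both tables, Il12rb2 in the upper right beyond 2-fold in both, and Il1rap next to the centre.

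A run of 6 genes of the IL-1 receptor family, Il1r2, Il1r1, Il1rl2, Il1rl1, Il18r1 and Il18rap in this order, forms a cluster of 475 kb on chromosome 1, which begins 25.4 Mb from Msc on the same chromosome. The 2 genes at its far end, Il18r1 and Il18rap, were lower in both tables. Il1rl1, the receptor of interleukin-33, ends 137 bp before Il18r1 begins, and was at 1.04 and 1.34 FPKM against 0.926 and 0.811 in WT (0.23 ± 0.19; adjusted p = 0.554, limma). It passed the filter on low values through the MSC KO-labelled libraries alone, and Il18rap did so through WT alone. Il1rl2, the interleukin-36 receptor, was at 0.0796 and 0.461 FPKM against 0.789 and 0.527, under the filter. It was at 0.101 of WT in 1 table, a larger fold there than that of Il18r1 or Il18rap, and at 0.875 of WT in the other.

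Within 1 Mb on either side of the cluster the tables held 23 genes, of which 11 were tested. Npas2, a circadian transcription factor gene, was the only tested gene outside the cluster that was lower in both tables (1.69 and 3.31 FPKM against 6.02 and 5.79; -1.02 ± 0.23, adjusted p = 0.178, limma). The kinase gene Map4k4, next to the cluster, was at 40.3 and 37.4 FPKM against 34.4 and 36.4. The ribosomal protein gene Rpl31 was at 1240 and 1510 FPKM against 1270 and 1380. Tbc1d8, Rnf149 and D1Bwg0212e had differences between -0.39 and 0.72, and the small RNA gene Snord89 was 0.84 higher in 1 table and 0.84 lower in the other.

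**Figure D5:**
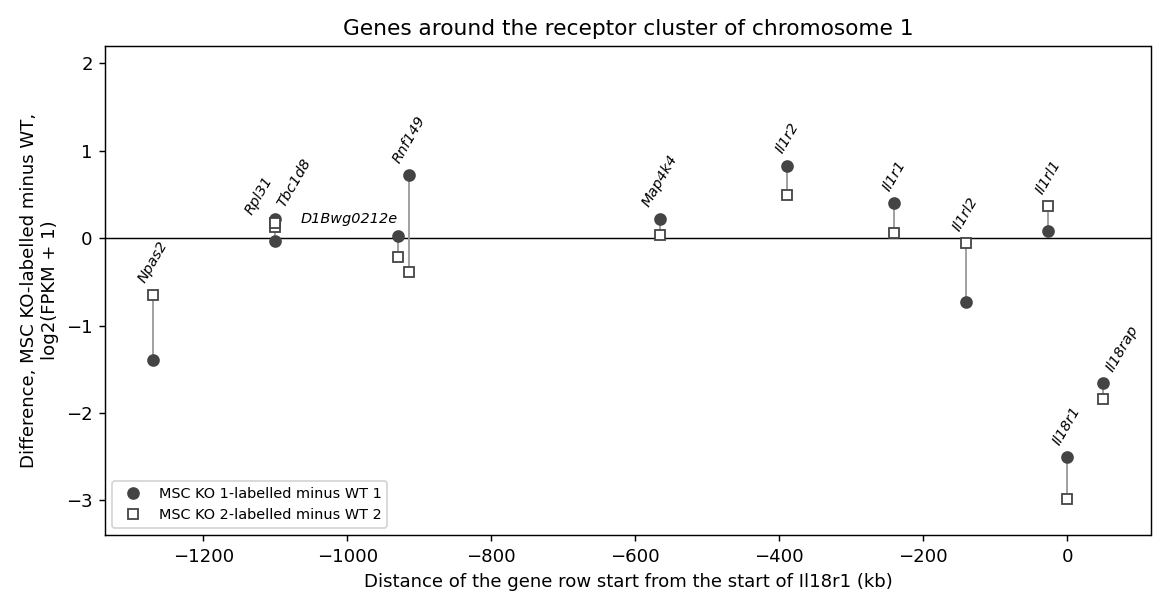
Differences of genes around the receptor cluster, by the distance in kb of each gene's start from the start of Il18r1, with 1 point per table on the log2(FPKM + 1) scale. Shown are genes with a mean of at least 1 FPKM except Snord89, and the cluster genes Il1r1 and Il1rl2. Il18r1 and Il18rap lie below -1.6 in both tables, while Il1rl1 beside them lies above 0, at 0.08 and 0.37. Il1rl1 passed the filter on low values through the MSC KO-labelled libraries alone, and Il18rap through WT alone.

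Genes whose 2 differences were nearest to those of a member, over 4 libraries, were found for the 3 members beyond 2-fold. The distance is the larger of the 2 gaps in log2 difference. For Il12rb2 they included the stress-induced transcription factor gene Atf3 (distance 0.127) and the phospholipase gene Plcd1 (0.134). For Il18rap they were the integrin gene Itga6 (0.0758), the isomerase gene Idi2 (0.107) and the guanylate-binding protein gene Gbp7 (0.114). For Il18r1, whose nearest genes were further off, they included the ubiquitin-like Ubd (0.457) and Tspan9 of the tetraspanins (0.678).

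On the ligand side, Il12a, the p35 subunit of IL-12, was at 4.08 and 5.56 FPKM in MSC KO-labelled libraries and at 0.261 and 0.33 FPKM in WT (2.16 ± 0.17, adjusted p = 0.114, limma). Il12b, the p40 subunit needed for both IL-12 and IL-23, was listed at 0 in all 4 libraries. Ebi3, which pairs with p35 in interleukin-35, was at 27.6 and 62.4 FPKM against 28.0 and 30.0, and was chosen after its values were seen. Il23a, the p19 subunit of IL-23, was at 1.25 and 1.64 FPKM against 0.407 and 0.8. Il23r, the partner of IL-12Rβ1 in the IL-23 receptor, was at 0.875 and 0.657 FPKM and listed at 0 in both WT libraries.

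The signalling parts of the IL-12 receptor were present in all libraries. Stat4 was at 27.3 and 41.6 FPKM against 17.9 and 18.5 (0.86 ± 0.17, adjusted p = 0.165, limma). Jak2 was at 63.3 and 34.1 FPKM against 25.4 and 26.5, and Tyk2 at 12.2 and 13.4 FPKM against 11.3 and 11.2. In the list of IL-12 receptor partners and JAK-STAT genes, 12 of 14 genes were found and 9 tested, 5 of them higher and 1 lower in both tables, with a median difference of 0.51. Il12a and Il23a were under 1 FPKM in both WT libraries and passed the filter only through the MSC KO-labelled ones, and without them 3 were higher, 1 was lower and the median was 0.17. No member of it passed over all genes. Over all tested genes 31.2% were higher and 37.5% lower in both tables, with a median difference of -0.02.

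Among the other IL-1 family receptors and inhibitors, Il1rn, the secreted antagonist of the IL-1 receptor, was at 46.6 and 17.6 FPKM in MSC KO-labelled libraries and at 4.74 and 4.67 FPKM in WT, 9.83 and 3.76 times WT (2.38 ± 0.38, adjusted p = 0.147, limma). Il1rn and Il1rl1 were the only 2 of 7 found genes of that list tested. Both were higher in both tables, as were 31.2% of all tested genes, and Il1rl1 passed the filter through the MSC KO-labelled libraries alone. The agonist Il1a was at 4.01 and 1.61 FPKM against 0.354 and 0.558 (1.32 ± 0.35, adjusted p = 0.204, limma). Il1b was listed at 0 in both MSC KO-labelled libraries and at 0 and 0.0208 FPKM in WT, and Il18 was at 0.256 and 0.45 FPKM against 0.14 and 0.139.

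The ligand and processing list had 13 of 16 genes found and 4 tested, 3 higher and 1 lower in both tables (median 1.13, and 0.94 without Il1a, which passed the filter through the MSC KO-labelled libraries alone). Among all tested genes 31.2% were higher and 37.5% lower in both tables (median -0.02). The inflammatory caspase genes differed mostly in 1 table. Casp1, which cleaves the precursors of IL-1β and IL-18, was at 9.18 and 1.97 FPKM against 1.87 and 1.86, and Casp4 at 22.9 and 3.77 FPKM against 2.83 and 2.90. Pycard, the inflammasome adaptor ASC, was at 34.5 and 31.4 FPKM against 45.8 and 45.0 (-0.45 ± 0.09, adjusted p = 0.169, limma).

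For the shared MyD88 and IRAK pathway 19 of 23 genes were tested, 8 higher and 7 lower in both tables, with a median difference of 0.00. Over all tested genes 31.2% were higher and 37.5% lower. Myd88, the adaptor of both receptors, was at 30.3 and 27.2 FPKM against 25.4 and 25.7 (0.16 ± 0.10, adjusted p = 0.43, limma). Traf6, the ubiquitin ligase downstream of IRAK, was at 23.6 and 24.3 FPKM against 30.9 and 32.0 (-0.38 ± 0.09, adjusted p = 0.185, limma). Map3k7, the kinase TAK1, had a difference of -0.21, and the kinase gene Map3k8 and the NF-kappaB inhibitor gene Tnfaip3 had differences of 0.37 and 0.42. None of the 19 passed over all genes.

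Of 19 genes listed as IL-12 and IL-18 response genes of T cells, 16 were tested, 11 higher and 3 lower in both tables. The list sets no direction of response. Their median was 0.35, and 0.43 without Eomes, which passed the filter through WT alone. None of the 16 passed over all genes. The shares of all tested genes were 31.2% higher and 37.5% lower in both tables (median -0.02). Ifng, the cytokine that IL-12 and IL-18 induce together, was at 33.7 and 42.1 FPKM against 50.0 and 51.6 (-0.42 ± 0.12, adjusted p = 0.209, limma). Tbx21, which encodes T-bet, was at 22.1 and 28.3 FPKM against 18.3 and 18.5. Gadd45b, a stress adaptor induced by IL-18 in Th1 cells, was at 73.2 and 95.0 FPKM against 32.2 and 28.7 (1.43 ± 0.17, adjusted p = 0.13, limma). The cytotoxic genes Gzmb (372 and 180 FPKM against 63.7 and 67.7) and Fasl (16.4 and 33.1 FPKM against 6.55 and 6.48) were above WT in both MSC KO-labelled libraries (adjusted p = 0.152 each, limma). Prf1, which encodes perforin, was under the filter and overlapped, at 0.717 and 0.177 FPKM against 0.35 and 0.466. Eomes, a T-box factor gene, was at 0.322 and 0.585 FPKM against 4.81 and 5.16.

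Of 18 regulators known for these receptor genes 17 were tested, 12 higher and 3 lower in both tables (median 0.24). Among all tested genes 31.2% were higher and 37.5% lower in both tables (median -0.02). Socs3, an inhibitor of cytokine receptor signalling, was at 80.1 and 38.8 FPKM against 9.83 and 9.62. Gata3, which represses Il12rb2 in type 2 helper cells, was at 33.7 and 31.1 FPKM against 22.7 and 22.1, and was named after its values were seen. Several genes stand in more than 1 list. Without the 2 regulators that passed the filter through 1 group alone, 11 were higher and 2 lower, with the median at 0.24.

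Cells other than CD4 T cells also use these receptors, among them natural killer (NK) cells, innate lymphoid cells and, for Il1r2, myeloid cells. In bulk RNA, fewer cells of a type and less RNA per cell cannot be told apart. The summed level of the 6 NK cell and ILC1 markers found was 5.22 to 5.83 FPKM in MSC KO-labelled libraries and 6.11 to 7.32 FPKM in WT, with Ncr1 at 0 in all 4. Its 2 tested genes differed in opposite directions without overlap, Klrk1 at 2.17 and 3.59 FPKM against 1.18 and 1.48, and Klrd1 at 2.73 and 1.66 FPKM against 4.52 and 5.56. Without overlap, 26.6% of all tested genes lay above WT and 32.5% below. The 10 myeloid markers summed to 4.47 to 4.6 FPKM against 3.40 to 3.43 FPKM, with S100a8 and S100a9 at 0. Within that sum Cd68 was at 3.85 and 3.39 FPKM against 1.35 and 1.39 in WT, and Mpeg1 the other way at 0.132 and 0.382 FPKM against 1.47 and 1.66. The 8 markers of type 2 innate lymphoid and mast cells summed to 7.55 to 22.0 FPKM against 12.7 to 12.8 FPKM, while Cpa3, Fcer1a, Ms4a2 and Mcpt4 were at 0. Kit made 2.47 and 14.9 FPKM of that sum against 10.2 and 9.81, with overlap. Rora was at 3.64 and 5.51 FPKM against 1.62 and 1.93 in WT, without overlap. Of the 3 tested genes of that list 2, Rora and Il1rl1, were higher in both tables and none was lower. Shares of all tested genes were 31.2% higher and 37.5% lower in both tables. Il1rl1 passed the filter through the MSC KO-labelled libraries alone.

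CD8 T cell markers, 2 genes, summed to 9.13 to 19.8 FPKM against 11.3 to 11.7 FPKM, of which Cd8b1 made 8.56 and 19.1 FPKM against 9.75 and 9.75, with overlap, and Cd8a 0.571 and 0.658 FPKM against 1.58 and 1.90, with none. The 6 B cell markers summed to 5.16 to 6.39 FPKM against 7.05 to 7.44 FPKM, mostly Cd79b, and the 3 gamma delta T cell markers found to at most 0.22 FPKM in any library. Of the 6 Treg markers 2 were higher and 3 lower in both tables, and of the 7 T cell markers 2 were higher and 3 lower. Among all tested genes 31.2% were higher and 37.5% lower in both tables. The part of these cells in the receptor levels was not tested.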

How the data were processed

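RNA from 4 libraries of induced Treg cells, 2 labelled MSC KO and 2 labelled WT, was sequenced after Illumina TruSeq preparation, per the labels' protocols. Reads were aligned to mm9 with TopHat, per the submitters' processing notes, with version, annotation and quantifier not given in the sources used here. Deposited by the authors were 2 gene tables of 24366 and 24752 rows, taken to be FPKM by their layout, with the authors' p-value and q-value per gene. Rows with no symbol (1925 and 2325) held 49.9% to 54.1% of the summed FPKM and were left out. For a repeated symbol the row of highest mean stood, and 3 symbols with loci that did not overlap and 6 with a failed estimate were dropped.

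Values were taken as log2(FPKM + 1) and genes averaging at least 1 FPKM across all 4 libraries were tested. Such differences understate the fold of low genes. The fit of MSC KO against WT used limma 3.58.1 (R 4.3.3), two-sided, with the table as a block, a trended prior (2.36 degrees of freedom) and Benjamini-Hochberg adjustment over all 10603 genes at 0.05. The script was tested on simulated data. Depth was estimated from the step between low values of genes with 1 GENCODE M21 transcript, in 31 to 50 genes a library; it sets counting precision only, and no interval was derived. Python 3.11.15 and pandas 2.3.3 served to join the tables.

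The members and gene lists were chosen with earlier results of these data known. Named are the 8 members, up to 4 genes of each list, ranked by the smaller of their 2 differences, 8 fixed genes, genes nearest to a member and genes around the chromosome 1 cluster. Alternatives changed the block, pseudocount, filter, scaling, prior, small RNA genes, repeated rows and libraries. Some genes that this rule names are not reported here.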

Additional observations from a re-analysis of the deposited data

How the results depend on the processing

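The direction of Il12rb1, Il12rb2, Il18r1, Il18rap, Il1r2, Il1r1 and Sigirr was the same in every alternative run that gave a value for the gene. Il1r1 had no value with no block, at a filter of 3 FPKM, with quantile normalization, with a prior without trend or with small RNA symbols left out. As the groups of these genes did not overlap, leaving out a library or changing the block or prior could not reverse their direction. Il1rap reversed in 1 run, without MSC KO replicate 1 (-0.002). With no replicate block, Il12rb2 (1.87, adjusted p = 0.0373, limma), Il18r1 (-2.75, 0.027) and Il18rap (-1.75, 0.0333) passed and the genes called numbered 153, against 1 with the block. The same-numbered libraries' deviations from their group means had a correlation of 0.0589 across genes, which cannot show whether they shared a source. The block rests on the pairing of libraries in the deposited tables. With small RNA symbols left out 26 genes were called, among them Il18r1 (-2.75, adjusted p = 0.0419, limma). Genes called were 7 with libraries rescaled to the same sum, and 0 with a pseudocount of 0.01, no filter on low values, quantile normalization or a prior without trend (2234, 2673, 2319 and 2088 at an unadjusted p under 0.05). Leaving out 1 library each, with no block and the lone library taken to vary like the other group, gave 0 to 2672 genes called: dropping WT 1 left 0, WT 2 left 3, MSC KO 1 left 2301 and MSC KO 2 left 2672. Differences then ranged from 0.878 to 1.04 for Il12rb1, 1.72 to 2.02 for Il12rb2, -2.94 to -2.565 for Il18r1, -1.80 to -1.69 for Il18rap, 0.05 to 0.408 for Il1r1, 0.536 to 0.786 for Il1r2, -0.002 to 0.311 for Il1rap and 0.572 to 1.22 for Sigirr, and Il12rb1, Il12rb2, Il18r1, Il18rap, Il1r2 and Sigirr passed without either MSC KO library and not without either WT library. Genes 2-fold apart in both tables numbered 226, and 345 with a pseudocount of 0.01. Il1r1 differed by 0.797 with a pseudocount of 0.1 and by 1.09 with 0.01, against 0.229, and Il18rap by -2.68 and -2.85, against -1.75. At a filter of 3 FPKM Il18rap, Il1rap and Il1r1 were not tested. The cause of these changes was not tested.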
